A study of Mus musculus with 12 samples.

Results

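The STAT genes encode the signal transducers and activators of transcription, and 6 of them (Stat2, Stat3, Stat4, Stat5a, Stat5b and Stat6) were followed here as rows of a table of 19434 counted genes. They were chosen by name, as members of 1 gene family, and each of the 6 passed the filter on low counts. RNA had been counted in 12 libraries of CD4+ T cells, the helper lineage, isolated from mouse lung. The mice, of strain C57BL/6NJ and both sexes, aspirated live Escherichia coli (2800000 colony-forming units) or phosphate-buffered saline (PBS) at day 5 of life (neonates) or day 15 (juveniles). Cells were taken 48 h later by bead enrichment and flow sorting, and the labels name no genetic change in any group. Mice given E. coli are called infected and mice given PBS controls. Each of the 4 groups (control and infected neonates, control and infected juveniles) held 3 libraries, and a library was a pool of 3 neonates or 2 juveniles, so n counts pools.

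STAT proteins wait in the cytoplasm until a cytokine binds its receptor. Receptor-bound Janus kinases (JAKs) then phosphorylate them, and the paired STATs enter the nucleus and switch on target genes, among them SOCS genes whose products shut the same receptors off. In helper T cells each member is tied to a branch of differentiation. STAT2 forms the interferon-stimulated complex ISGF3 with IRF9, STAT3 acts below IL-6, IL-21 and IL-23 in Th17 cells, STAT4 acts below IL-12 in Th1 cells, STAT5A and STAT5B act below IL-2 and IL-7, and STAT6 acts below IL-4 in Th2 cells. Activation of STAT proteins is a matter of phosphorylation, which RNA counts do not measure.

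Total counts ran from 6035445 to 8129983 per library. Each STAT gene had 253 to 3702 counts in every library, far above the 3 counts that a count of 0 would allow (0.374 to 0.494 CPM, counts per 1000000 counts). The markers that define the sorted cells were abundant, with Cd3e at 1421 to 2033 CPM and Cd4 at 1028 to 1343 CPM over the 12 libraries. Rag1, the recombinase of immature lymphocytes, differed between libraries of 1 group. It stood at 344, 76.0 and 47.5 CPM in control neonatal libraries 1 to 3 and at 13.7, 169.9 and 29.5 CPM in control juvenile libraries 1 to 3, and control juvenile library 2 lay apart from the rest of its group (correlations of log2 CPM of 0.969 and 0.975). Named calls that are lost without control neonatal library 1 and control juvenile library 2, and counts that move by over 1.5 times, are also given without them. In bulk samples fewer cells of a type and less RNA per cell cannot be told apart.

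The genes lie on 3 chromosomes (GRCm38, GENCODE M21). Stat4 lies on chromosome 1 (51987148 to 52107189, plus strand). Stat6 (127642986 to 127660957) and Stat2 (128270559 to 128292849), both on the plus strand, lie on chromosome 10. Chromosome 11 holds Stat5b (100780731 to 100850724, minus strand), Stat5a (100859351 to 100885169, plus strand) and Stat3 (100885098 to 100939540, minus strand) in a row. Stat5b and Stat5a start 8626 bases apart and point away from each other, and the ends of Stat5a and Stat3 overlap by 72 exonic bases. Stat5a and Stat5b are close copies, and 265 stretches of 100 bases, the read length, are identical in the transcripts of both (3.44% of those of Stat5a and 4.79% of those of Stat5b), so the split of those reads between them is uncertain. No other pair of the 6 genes shared such a stretch. Exons of Stat4 also overlap the transcript Gm28177 by 1033 bases and those of Stat6 overlap Nab2 by 40 bases, and with a kit that does not mark strand reads in such overlaps cannot be told apart.

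Promoter sequence is shown for 3 of the genes because their transcripts behaved differently after infection: Stat2 rose in juveniles, Stat3 rose at both ages, and Stat4 passed in neither response. Each window runs from 250 bases before to 50 after a RefSeq start site (GRCm38.p6), and capitals mark a match to GAAANNGAAA, a core shared by many interferon response elements, on either strand. The windows are chr10:128270248-128270547 (Stat2, plus strand), chr11:100939491-100939790 (Stat3, minus strand) and chr1:52007990-52008289 (the downstream of the pair of Stat4 starts, plus strand).
Stat2: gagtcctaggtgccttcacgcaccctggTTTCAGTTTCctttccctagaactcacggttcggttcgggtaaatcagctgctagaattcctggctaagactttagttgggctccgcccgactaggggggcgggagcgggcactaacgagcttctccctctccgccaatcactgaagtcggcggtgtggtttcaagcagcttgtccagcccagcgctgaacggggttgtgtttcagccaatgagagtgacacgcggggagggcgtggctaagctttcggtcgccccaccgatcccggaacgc
Stat3: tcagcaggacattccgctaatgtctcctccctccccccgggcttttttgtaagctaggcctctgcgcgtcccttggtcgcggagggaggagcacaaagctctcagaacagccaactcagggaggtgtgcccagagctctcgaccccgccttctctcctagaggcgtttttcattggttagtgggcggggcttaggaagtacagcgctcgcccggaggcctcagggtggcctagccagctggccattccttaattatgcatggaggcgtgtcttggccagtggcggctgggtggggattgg
Stat4: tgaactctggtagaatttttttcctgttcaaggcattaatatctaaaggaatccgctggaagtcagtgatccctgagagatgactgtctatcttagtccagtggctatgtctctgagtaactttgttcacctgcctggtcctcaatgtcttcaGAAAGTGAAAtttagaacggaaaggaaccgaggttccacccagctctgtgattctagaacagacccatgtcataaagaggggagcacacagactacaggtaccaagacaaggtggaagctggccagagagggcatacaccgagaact
The match in Stat2 begins at position -222 from the start site (on the minus strand, printed as TTTCAGTTTC) and that in Stat4 at position -97 (GAAAGTGAAA). The upstream Stat4 window (chr1:51986898-51987197), at the annotated gene start and not printed, held 0 matches, so the match belongs to the downstream start only. All 6 genes were in the promoter table, with 9 windows in all, of which 2 held GAAANNGAAA, against 3.44% of all 32851 windows. The palindrome TTCNNNGAA, the core of the gamma-activated site that STAT dimers bind, was searched on both strands as well and was in 0 of the 9 windows, against 8.30% of all windows; that says only that these letters are not in these windows.

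Stat2, the interferon-linked member, had the widest range relative to its level. Control neonates had 37.6, 41.8 and 48.2 CPM in libraries 1 to 3, and infected neonates 56.5, 55.8 and 48.2 CPM. Control juveniles had 44.8, 46.1 and 43.0 CPM and infected juveniles 159.8, 124 and 105 CPM. The 3 infected juvenile libraries lay above all 9 others, while the lowest infected and the highest control neonatal library both stood at 48.2 CPM after rounding, the infected one being marginally higher.

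**Figure D1:**
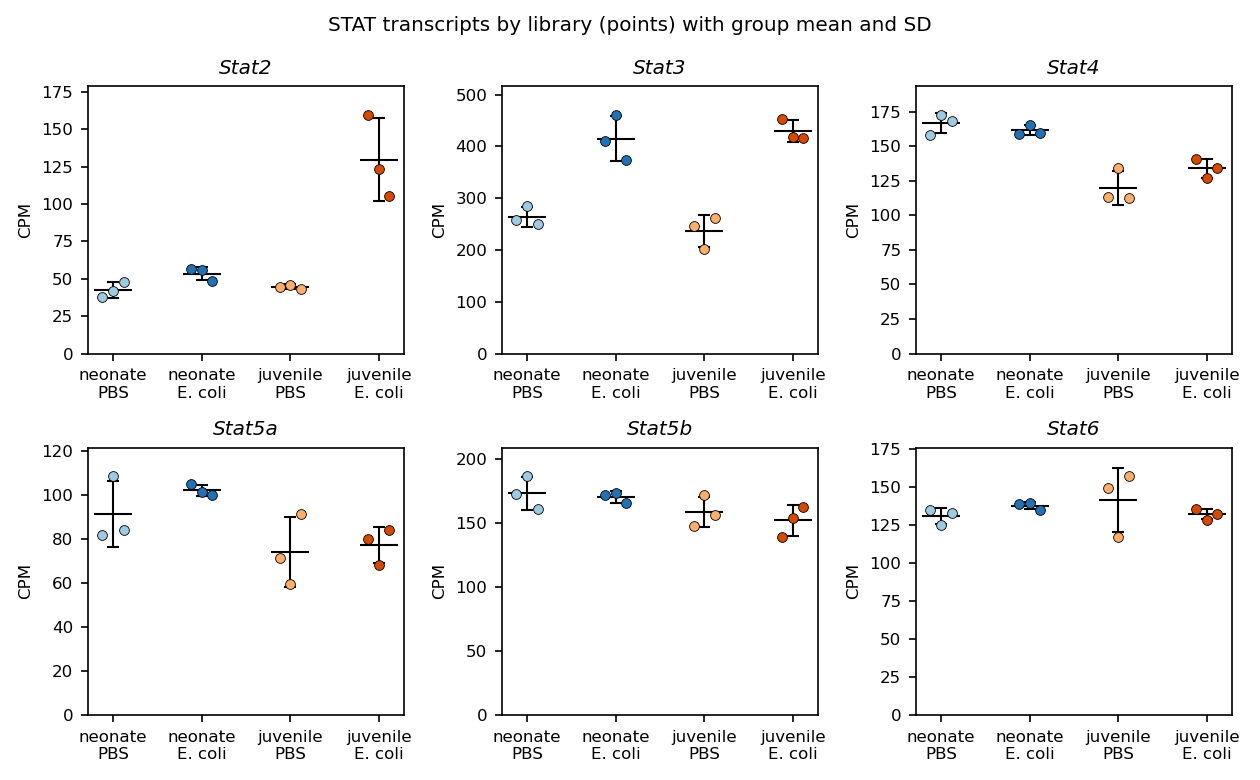
CPM (vertical axes, from 0) of each STAT transcript in the 12 libraries; points are libraries, bars the group mean and SD of 3 pools. Stat2 reached 105 to 159.8 CPM in infected juvenile libraries against 37.6 to 56.5 CPM elsewhere, and Stat3 was higher in E. coli than in PBS libraries at both ages.

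In juveniles, infection raised 2 of the 6 transcripts. Stat2 rose from 44.7 ± 1.56 to 129.6 ± 27.7 CPM (mean ± SD, n = 3), 2.90-fold or 1.54 ± 0.14 on the log2 scale (± SE, edgeR quasi-likelihood adjusted p = 3.45e-06), and 513 of the 11062 genes tested had a larger log2 fold change. Stat3 rose from 236.7 ± 31.3 to 429.5 ± 20.8 CPM, 1.81-fold (log2 0.86 ± 0.10, adjusted p = 3.22e-05). These 2 of the 6 STAT genes were called, where 24.8% of all genes tested were called, 15.4% higher and 9.42% lower. They were also the 2 whose groups did not overlap, both higher, as were 20.6% of all genes tested. Without control juvenile library 2, Stat4 was also called higher (log2 0.25, adjusted p = 0.0277) and Stat6 lower (log2 -0.21, adjusted p = 0.0446). Both calls were also made by limma voom with sample weights.

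In neonates the same comparison called 1 of the 6, Stat3, where 1.19% of all genes tested were called, 1.05% higher and 0.145% lower. Stat3 stood at 257, 286 and 249.6 CPM in control neonates and at 410.2, 461 and 374 CPM in infected ones. In juveniles it stood at 246, 202 and 262 CPM in controls and at 454, 418 and 417 CPM after infection, so the groups lay apart at both ages. In neonates 3 of the 6 genes (Stat2, Stat3 and Stat6) lay higher without overlap, against 11.2% of all genes tested. The neonatal change of Stat3 was 1.57-fold (log2 0.65 ± 0.10, adjusted p = 0.00507), and 597 genes had a larger one. Stat2 was 1.26-fold higher (log2 0.33, 95% interval 0.03 to 0.64), which did not pass (unadjusted p = 0.0344, adjusted p = 0.365). It was called under 0 of 23 alternatives, with 0.25 to 0.44 as the range of its log2 change (smallest adjusted p = 0.129).

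The difference between the ages was tested as an interaction. The response of Stat2 was larger in juveniles by 1.20 ± 0.20 on the log2 scale (adjusted p = 0.00295), and this was 1 of the 6 genes, where 7.00% of all genes tested were called, 5.05% with a larger and 1.94% with a smaller value in juveniles. It was called under each of the 22 alternatives (log2 0.99 to 1.33). For Stat3 the difference was 0.21 ± 0.15 (95% interval -0.10 to 0.52, adjusted p = 0.437). The other 4 genes did not pass, at -0.17 to 0.21. Infected neonates had less Stat2 than infected juveniles (log2 -1.27 ± 0.14, adjusted p = 1.48e-05), while controls of the 2 ages differed by -0.07 (95% interval -0.38 to 0.24, adjusted p = 0.857).

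**Figure D2:**
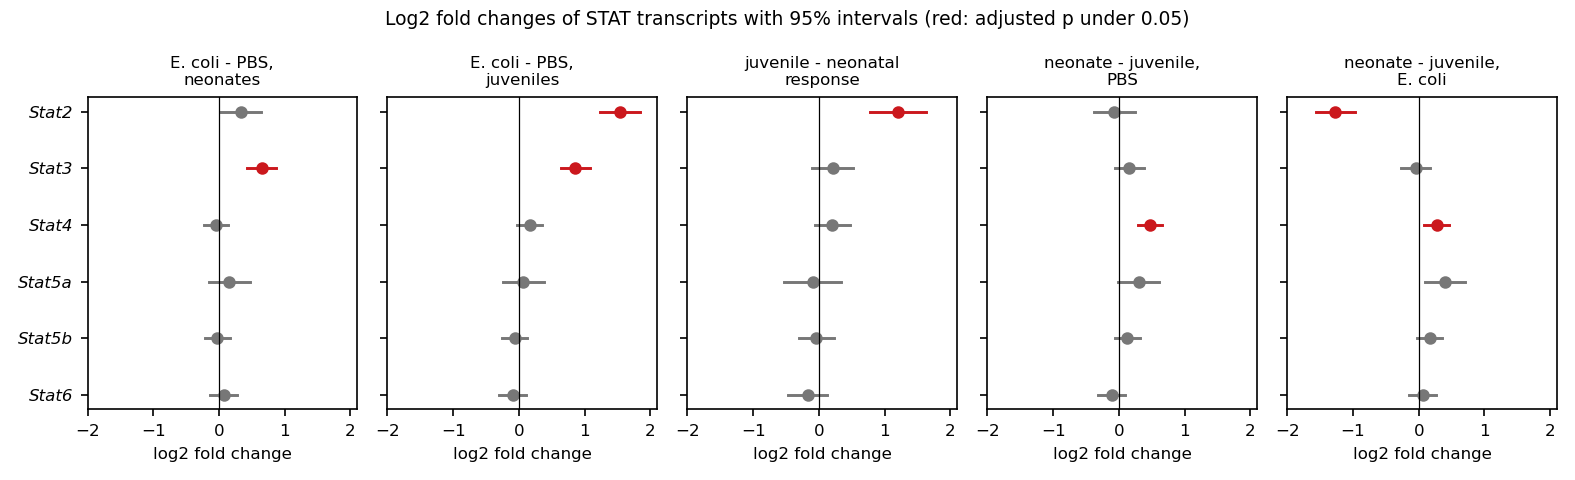
Log2 fold changes (horizontal axes) of the 6 STAT transcripts in the 5 comparisons, with 95% intervals from the fit of all 12 libraries; red marks an adjusted p under 0.05. Stat2 passed in juveniles (1.54) and in the difference of responses (1.20), Stat3 passed at both ages (0.65 and 0.86), and Stat4 passed in both comparisons of age (0.48 and 0.27).

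Transcripts of myeloid cells also moved with exposure. Of all genes tested, 1.05% were called higher in neonates and 15.4% in juveniles. Of 13 myeloid markers tested, 4 rose in neonates and 10 in juveniles with 0 falling, and the sum over the 14 markers in the table was 189 to 336 CPM in controls and 289 to 546 CPM in infected mice at the younger age and 159 to 348 and 409 to 742 CPM at the older. Retnlg was at 0 counts in both PBS groups, and S100a9 and Cxcr2 were at 0 in control juveniles. With the mean level of these markers as a covariate, Stat3 changed by 0.48 in neonates (adjusted p = 0.783) and 0.64 in juveniles (adjusted p = 0.102) and was not called. In that fit edgeR called 0 of the 11062 genes in neonates (533 at an unadjusted p under 0.05), and in juveniles 164 higher and 21 lower, against 1705 and 1042 without the covariate. Stat2 was called in juveniles with that covariate (log2 1.56). The covariate lay above its mean in every E. coli library (lowest 0.0779) and below it in every PBS library (highest -0.241). It and exposure therefore cannot be told apart in this fit, and the part of myeloid cells in the results for Stat2 and Stat3 was not tested. Dendritic cell markers also rose in juveniles, 3 of 7 (5 without control neonatal library 1 and control juvenile library 2), with a summed level of 85.4 to 108 CPM in controls and 192 to 266 CPM after infection (8 markers, 0 of them at 0; in neonates 43.9 to 60.3 and 58.0 to 73.3 CPM), and their part in the results for Stat2 and Stat3 was not tested.

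Stat4 differed by age. Control neonates had 159, 173 and 169 CPM and control juveniles 113, 134 and 112 CPM, with no overlap. Control neonates were 1.39-fold higher (166.7 ± 7.38 against 119.8 ± 12.3 CPM, log2 0.48 ± 0.09, adjusted p = 0.00652), where 4.08% of all genes tested were called, 2.32% higher and 1.75% lower in neonates. Of the 6 genes it was the 1 whose control groups did not overlap, against 9.82% of all genes tested that lay higher in neonates. The direction and the call held under each of the 23 alternatives, at 0.42 to 0.60, the highest value being that without control neonatal library 1 and control juvenile library 2. After E. coli, Stat4 stood at 159, 166 and 159.9 CPM in neonates and at 140.5, 127 and 134 CPM in juveniles. That difference was 1.21-fold (log2 0.27 ± 0.09, adjusted p = 0.0414), where 17.8% of all genes tested were called, 6.42% higher and 11.3% lower in neonates. It was near the threshold: it lost the call without any 1 of the 3 infected juvenile, 3 infected neonatal or 3 control neonatal libraries (adjusted p = 0.0534 to 0.178, log2 0.23 to 0.31) and kept it without any 1 control juvenile library. Exposure changed Stat4 by -0.04 ± 0.09 in neonates (adjusted p = 0.910) and 0.16 ± 0.09 in juveniles (adjusted p = 0.192).

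Stat5a and Stat5b, which transmit IL-2 and IL-7 signals, passed in 0 of the 5 comparisons with edgeR. Stat5a had 81.8, 109 and 84.1 CPM in neonates without infection and 105, 102 and 100.1 CPM with it, and 71.6, 59.5 and 91.3 CPM in juveniles without and 80.0, 68.4 and 84.3 CPM with infection. After E. coli all 3 neonatal libraries lay above all 3 juvenile ones, a log2 difference of 0.40 ± 0.14 (95% interval 0.09 to 0.71, unadjusted p = 0.0141, adjusted p = 0.0700), as did Stat4 and Stat5b, while Stat2 lay wholly lower. These 4 of the 6 genes without overlap stand against 39.9% of all genes tested (19.4% higher in neonates). DESeq2 did not call Stat5a, whereas limma voom (adjusted p = 0.00197), upper-quartile scaling (0.0468), the fit of E. coli libraries alone (0.0137) and the fits without control juvenile library 2 (0.0251) or 3 (0.0350) did. In all, 6 of the 23 alternatives called it, 3 of them edgeR fits with libraries left out (lowest adjusted p of those 0.0246).

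Stat5b had 173, 187 and 161 CPM in neonates without infection and 172, 174 and 165 CPM with it, and 148, 172 and 156 CPM in juveniles without and 139, 154 and 162 CPM with infection. Its responses were -0.03 (95% interval -0.21 to 0.16) in neonates and -0.06 (-0.25 to 0.13) in juveniles. The unadjusted p was 0.0833 at the lowest over the 5 comparisons, and DESeq2 and limma voom called it in 0 of them. With the counts of both genes summed, the log2 change was 0.04 in neonates (edgeR adjusted p = 0.919) and -0.02 in juveniles (adjusted p = 0.892), and neonates were above juveniles by 0.25 after E. coli (adjusted p = 0.0589).

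Per kilobase of exon, the ratio of Stat5a to Stat5b was 0.409 ± 0.0423 in control and 0.467 ± 0.0108 in infected neonates (mean ± SD, n = 3). It was 0.366 ± 0.0925 in control and 0.398 ± 0.0510 in infected juveniles. The level of this ratio depends on the length used, whereas a log2 shift between groups does not. Per kilobase of the longest transcript, control neonates had Stat5a at 23.1 and Stat5b at 33.2 CPM. In raw counts the ratio was 0.347 to 0.612 over the 12 libraries. Within age, the ratio per kilobase was higher after E. coli than after PBS by 0.17 on the log2 scale, which did not pass (two-sided exact permutation test over 400 assignments, p = 0.205, smallest possible 0.005). Control juvenile library 2 had the lowest ratio of the 12 (0.269), and without control juvenile library 3, which had 0.454, the shift was 0.25 (exact permutation p = 0.045). Of the 12 runs that left out 1 library each, that was the single one with a p under 0.05.

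Stat6, the factor of IL-4 signalling, had 134, 125 and 133 CPM in neonates without infection and 139, 139 and 135 CPM with it, and 149, 117 and 157 CPM in juveniles without and 135, 128 and 132 CPM with infection. The infected neonatal libraries lay just above the control neonatal ones, and in the other comparisons the groups overlapped. It passed in 0 of the 5 comparisons with edgeR (lowest unadjusted p = 0.242) and with DESeq2, while limma voom called it lower in infected juveniles (log2 -0.19, adjusted p = 0.0436). Its responses were 0.07 (95% interval -0.14 to 0.28) in neonates and -0.10 (-0.31 to 0.11) in juveniles. Control juvenile library 2 held the lowest Stat3, Stat5a and Stat6 and the highest Stat2, Stat4 and Stat5b of its group, beside its Rag1 level of 169.9 CPM and a Cd8a level of 63.3 CPM against 7.78 and 11.5 CPM in the other 2.

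With the mean level of 9 immature T cell markers as a covariate, the neonatal change of Stat3 was 0.56 and was not called (adjusted p = 0.0973), while Stat3 in juveniles (0.90), Stat2 in juveniles (1.55) and Stat4 between ages after PBS (0.45) were. In that fit edgeR called 55 genes higher and 1 lower in neonates, against 116 and 16 without the covariate. The covariate lay higher in every control neonatal library (lowest -0.159) than in every infected one (highest -0.354). It and exposure therefore cannot be told apart in neonates. The sum over these markers, which include Satb1 and Tcf12 of mature T cells, was 2665 to 3194 CPM in control and 2651 to 3476 CPM in infected neonates, and 2487 to 2595 CPM in control and 1837 to 2435 CPM in infected juveniles, with 0 of 9 markers at 0 in any group. In neonates edgeR called 0 of the 9 markers (5 at an unadjusted p under 0.05), with a median log2 change of -1.69. DESeq2, limma voom and edgeR without control neonatal library 1 and control juvenile library 2 each called 1 lower. Rag1 stood at 0.255, 42.8 and 8.49 CPM in infected neonatal libraries 1 to 3. In juveniles 0 of the 9 rose and 1 fell with edgeR, and 5 rose and 1 fell with limma voom. In edgeR without control neonatal library 1 and control juvenile library 2, 6 rose and 1 fell. The part of immature T cells in the STAT results was not tested. Without control neonatal library 1 and control juvenile library 2, a setting chosen after seeing the data, Stat3 rose at both ages, Stat2 in juveniles and Stat4 was higher in neonates after PBS, and 3 STAT genes were called in the juvenile response, Stat4 being added (log2 0.25, adjusted p = 0.0295).

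Levels of different genes compare only per length, here CPM per kilobase of annotated exon. In control neonatal libraries Stat4 led at 43.0 ± 1.91 CPM per kilobase, above Stat5b (31.3 ± 2.35), Stat6 (29.7 ± 1.15) and Stat3 (27.7 ± 1.99), whose neighbours overlapped, and above Stat5a (12.8 ± 2.09) and Stat2 (7.18 ± 0.897). In control juvenile libraries Stat6 (32.1 ± 4.79), Stat4 (30.9 ± 3.17), Stat5b (28.6 ± 2.16) and Stat3 (24.8 ± 3.28) overlapped in turn. After E. coli Stat3 stood first at both ages, at 43.6 ± 4.61 in neonates, where it overlapped Stat4 (41.7 ± 0.936), and at 45.1 ± 2.19 in juveniles, where it lay above Stat4 (34.6 ± 1.71). Stat2 was the lowest of the 6 in 3 groups, and in infected juvenile libraries it stood at 21.9 ± 4.68 against 10.9 ± 1.15 for Stat5a, with no overlap. The order depended on the length used. Per kilobase of the longest transcript, control neonates had Stat4 at 55.9, Stat3 at 43.7, Stat6 at 34.6 and Stat5b at 33.2, so that Stat3 moved from rank 4 to rank 2. Control juveniles had Stat4 at 40.2, Stat3 at 39.2, Stat6 at 37.4 and Stat5b at 30.4, and 2 of the 6 genes kept their rank. All 6 kept it in infected neonates and 4 in infected juveniles, and Stat3 stood first in both by either length.

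**Figure D3:**
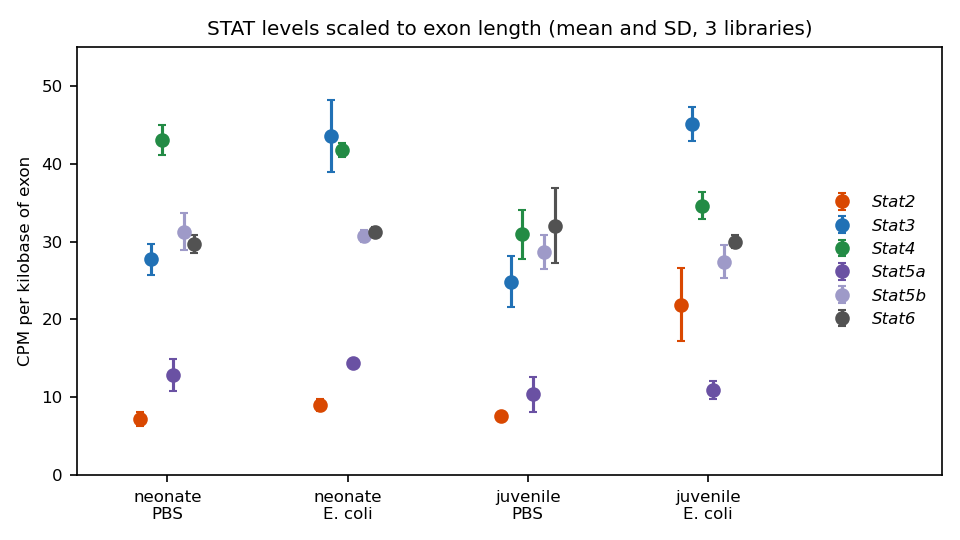
Mean CPM per kilobase of annotated exon (vertical axis, from 0) of the 6 STAT genes in the 4 groups, with SD over 3 libraries. Stat3 moves from 27.7 to 43.6 in neonates and from 24.8 to 45.1 in juveniles, and Stat2 from 7.54 to 21.9 in juveniles.

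Upstream of the STATs, 3 of the 4 JAK kinases passed in juveniles (median log2 0.40, and 0.07 in neonates). Of all genes tested, 24.8% were called in juveniles (15.4% higher, 9.42% lower) and 1.19% in neonates. Jak3, the kinase of the common gamma chain, rose from 34.9 ± 6.53 to 73.7 ± 5.46 CPM (log2 1.08 ± 0.12, adjusted p = 2.04e-05) and Jak2 from 269.6 ± 36.3 to 445 ± 24.7 CPM (log2 0.72 ± 0.09, adjusted p = 4.08e-05). Jak1, the most abundant of them, fell from 1788 ± 85.0 to 1446 ± 60.5 CPM (log2 -0.31 ± 0.07, adjusted p = 0.00398), and Tyk2 did not pass, with 43.0 ± 3.15 CPM in controls and 45.4 ± 0.365 CPM after infection. In neonates edgeR called 0 of the 4 (1 at an unadjusted p under 0.05), as did DESeq2 and limma voom, and the responses of Jak2 and Jak3 differed between the ages by 0.65 ± 0.13 (adjusted p = 0.00714) and 0.74 ± 0.17 (adjusted p = 0.0176).

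The receptor counts in juveniles stand against 15.4% of all genes tested called higher and 9.42% called lower. In juveniles the interferon receptor chains Ifnar2 (log2 0.41 ± 0.08) and Ifngr1 (0.50 ± 0.11) rose, and Ifnar1 (-0.05) and Ifngr2 (-0.14) did not pass. Of the IL-12 family receptor chains, Il12rb1 (2.05 ± 0.19), Il12rb2 (1.13 ± 0.21) and Il23r (2.30 ± 0.40) rose in juveniles, and Il27ra (-0.10) did not pass. Of 6 chains read out through STAT3, 2 rose and 2 fell, among them Lifr (1.10 ± 0.20), the IL-21 receptor Il21r (0.44 ± 0.12) and the gp130 chain Il6st (-0.37 ± 0.10). Of 7 gamma chain family receptors, 3 rose and 1 fell, with the IL-2 receptor chains Il2ra at 1.63 ± 0.21 and Il2rb at 1.20 ± 0.18 and the IL-7 receptor Il7r at -0.75 ± 0.10.

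In neonates, where 1.19% of all genes tested were called, Il21r rose (0.59 ± 0.12, adjusted p = 0.0217). Il21r was the single call among these 21 receptor chains with edgeR. Without control neonatal library 1 and control juvenile library 2 it was not called (log2 0.54, adjusted p = 0.0664), which left 0 of the chains. The interferon receptors had 0 of 4 with edgeR (0 at an unadjusted p under 0.05) and with the other tools. The IL-12 family chains had 0 of 4 (3 at an unadjusted p under 0.05; DESeq2 0, limma voom 1) and the gamma chain family 0 of 7 (2 at an unadjusted p under 0.05; 1 lower with DESeq2 and with limma voom).

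Genes that STATs are known to induce were counted by factor, from textbook lists rather than from binding data, so a list names a pathway and not a measured target. The shares of all genes tested that were called higher, 1.05% in neonates and 15.4% in juveniles, are the background of each list count. Those called lower were 0.145% and 9.42%. For the difference of responses the background is 7.00% called, 5.05% with a larger value in juveniles. Of 15 ISGF3 targets, 15 rose in juveniles (median log2 2.02, against -0.01 over all genes tested), including Rtp4 (1.77 ± 0.17), the antiviral synthetase Oas2 (1.97 ± 0.20) and Ifit1 (2.15 ± 0.22). In neonates edgeR called 0 of the 15 (0 at an unadjusted p under 0.05), as did DESeq2 and limma voom, with a median of 0.12. The difference of responses was called for 9 of the 15. Without control neonatal library 1 and control juvenile library 2 the juvenile count was 13. The ISGF3 partner Irf9 rose in juveniles from 79.1 ± 2.44 to 102.7 ± 9.75 CPM (log2 0.38 ± 0.10, adjusted p = 0.0143), the single call among 6 partners and coactivators (2 calls without those libraries). Of the 15 targets, 10 were in the promoter table, and 6 of these 10 held GAAANNGAAA, against 3.99% of the 27025 genes in that table. It was in 0 of 13 STAT3 targets and 1 of 10 inhibitors of the pathway found there. TTCNNNGAA was in 3 of the 10 ISGF3 targets, 1 of the 13 STAT3 targets and 2 of the 10 inhibitors, against 9.55% of all genes. Whether either motif acts in these cells was not tested.

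Of 16 STAT3 targets, 8 rose in neonates (median log2 0.95) and 14 in juveniles (median 1.91), with 0 falling. Bcl3, a nuclear IkB protein, rose by 1.59 ± 0.17 in neonates and 2.32 ± 0.18 in juveniles, Irf4, a factor induced by antigen receptor signals, by 2.02 ± 0.21 and 2.50 ± 0.21, and the transcription factor Maf by 1.51 ± 0.12 in juveniles. The difference of responses was called for 5 of the 16. Without control neonatal library 1 and control juvenile library 2 the counts were 7 and 14.

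Of 9 STAT4 targets, 1 rose in neonates, the stress gene Gadd45g (2.25 ± 0.43), and 9 rose in juveniles, with Ifng at 3.08 ± 0.28, the IL-18 receptor chain Il18rap at 1.34 ± 0.12 and the Th1 factor Tbx21 at 1.84 ± 0.22. Of 13 STAT5 targets, 1 rose in neonates, the feedback inhibitor Cish (1.11 ± 0.17), and in juveniles 8 rose and 1 fell, including Cish (1.76 ± 0.16), the protease gene Gzmb (3.45 ± 0.43) and Il2ra. Of 8 STAT6 targets, 0 passed in neonates with edgeR (3 at an unadjusted p under 0.05; 1 higher with DESeq2 and 1 lower with limma voom) and 5 rose in juveniles, including the chemokine receptors Ccr8 (1.82 ± 0.28) and Ccr4 (0.79 ± 0.13) and the cytokine Il13 (2.93 ± 0.75). In neonates 6 of the 9 STAT4 and 6 of the 13 STAT5 targets had an unadjusted p under 0.05, and the difference of responses was called for 2 of the STAT4 (4 without control neonatal library 1 and control juvenile library 2), 5 of the STAT5 and 1 of the STAT6 targets, all larger in juveniles. Without those 2 libraries, 5 of the STAT5 and 1 of the STAT6 targets were called larger in juveniles, and 2 and 1 smaller. The list medians were 0.65 in neonates and 1.34 in juveniles for STAT4, 0.17 and 1.01 for STAT5 and 0.11 and 1.53 for STAT6. Markers of NK and innate lymphoid cells, which also express Ifng, Gzmb and Tbx21, summed to 61.2 to 92.0 CPM in control and 114 to 133 CPM in infected juveniles (6 markers, Klra8 at 0 in all 4 groups). Of 3 tested in juveniles, 0 were called by edgeR and 1 by limma voom. In edgeR without control neonatal library 1 and control juvenile library 2, 1 of 4 rose. The part of these cells in the target counts was not tested. Targets of STAT4, STAT5 and STAT6 were called in juveniles, in which the transcripts of Stat4, Stat5a, Stat5b and Stat6 themselves did not pass with edgeR on all 12 libraries. As given above, Stat4 was called higher and Stat6 lower without control juvenile library 2 and with limma voom.

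**Figure D4:**
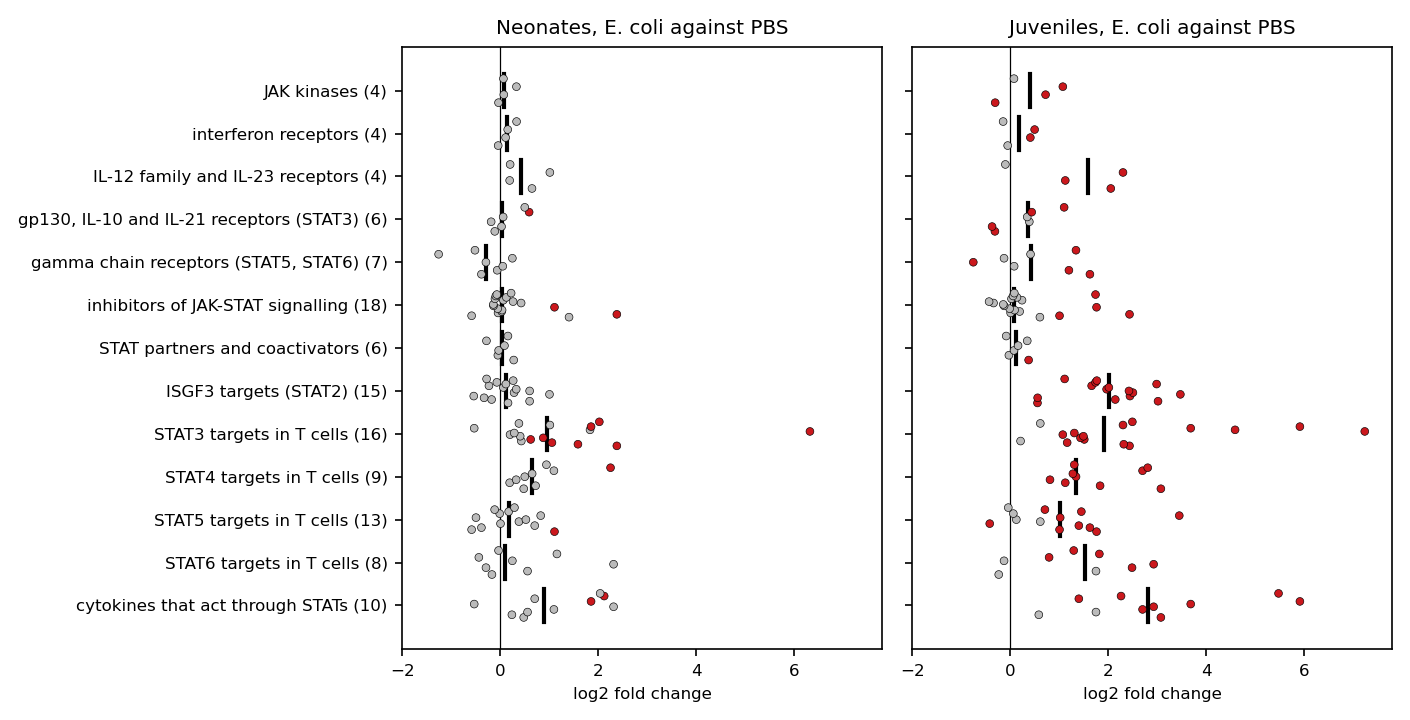
Log2 fold changes (horizontal axes) of the tested genes of each JAK-STAT list, with the number tested in brackets, in neonates (left) and juveniles (right); red marks an adjusted p under 0.05 and black bars list medians. The 15 ISGF3 targets center near 0 (0.12) in neonates and at 2.02 in juveniles; values of genes with 0 to 3 counts in a group, such as Il22 in juveniles, depend on the fit's prior count.

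Of 18 inhibitors of the pathway, which include SOCS and PIAS genes and phosphatases, 2 rose in neonates and 4 in juveniles, with 0 falling and medians of 0.03 and 0.09. The 4 of 18 lie near the 15.4% of all genes called higher in juveniles. Without control neonatal library 1 and control juvenile library 2 the counts were 3 and 5. Socs3, the inhibitor that STAT3 induces, rose by 2.38 ± 0.22 and 2.44 ± 0.23, Cish rose at both ages, and Usp18, which acts on the type I interferon receptor, rose by 1.74 ± 0.28 in juveniles. Of 10 cytokine genes tested, 2 rose in neonates and 8 in juveniles (medians 0.90 and 2.82), and the difference of responses was called for 3. Lif, a ligand of the gp130 family, rose by 2.12 ± 0.23 and 2.26 ± 0.24, and Il22 by 1.86 ± 0.30 in neonates. In juveniles Il22 had 169 counts after E. coli against 2 after PBS, a ratio of 70.6 (95% exact binomial interval 19.3 to 588, counting error only). Its level was nevertheless higher in neonates, at 3.61 ± 1.34 CPM in control and 13.0 ± 1.21 CPM in infected neonates. Juveniles had 0.110 ± 0.190 and 7.33 ± 0.520 CPM. The other 8 of the 18 listed cytokines had too few counts to be tested.

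The genes whose levels tracked each STAT most closely over the 12 libraries were named by Pearson correlation of log2 CPM among 8042 genes, as a description, since the 12 points share 4 groups and their differences. For Stat2 these were Nampt (r = 0.993), Zbp1 (0.992) and Gbp4 (0.988), the last 2 an interferon-induced nucleic acid sensor and a guanylate-binding protein, with juvenile changes of 1.44, 1.56 and 1.45 and neonatal changes of 0.27, 0.29 and 0.36. For Stat3 they were Bcl3 (0.984), Sbno2 (0.983) and Socs3 (0.970), of which Sbno2 rose by 1.28 ± 0.17 in neonates and 1.33 ± 0.17 in juveniles. For Stat4 they were Tln2 (0.938), Orc1 (0.916) and Depdc1b (0.910). Tln2, a talin of the cell cortex, was higher in neonates after PBS by 1.68 ± 0.17, and Orc1, of the replication origin complex, by 0.82 ± 0.19. For the other 3 STAT genes they were Pabpc4 (0.948), Rltpr (0.947) and Ulk1 (0.913) for Stat5a, Topors (0.914), Tubb2a (0.911) and Rnf103 (0.891) for Stat5b, and Ucp2 (0.917), Atp6v0a2 (0.896) and Tesk1 (0.886) for Stat6.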

How the data were processed

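RNA of 12 lung CD4+ T cell libraries was analysed. Per the submitters' processing notes, bases were called with CASAVA 1.8.4, and reads were aligned with STAR, with GRCm38 (mm10) as the build named. The authors deposited raw counts per gene symbol, made in SeqMonk by the table's name. No source used here gives its annotation, strand setting or filters. The labels' cDNA kit does not mark strand.

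All 12 columns were mapped by title. Counts were tested by quasi-likelihood in edgeR 4.0.16 under R 4.3.3, on 4 group means with TMM scaling, after filterByExpr (minimum count 10, minimum total count 15; 11062 genes, 99.9% of counts), with Benjamini-Hochberg adjustment over all genes tested and a threshold of 0.05. Depth was 6035445 to 8129983 counts per library, a floor of 0.374 to 0.494 CPM, and floors and the interval of the count ratio cover counting error only. CPM use the tested total and TMM factor. Exon lengths and coordinates are from GENCODE M21, promoters from RefSeq (GRCm38.p6). Alternatives were DESeq2 1.42.0, scaling by RLE or upper quartile, limma 3.58.1 voom with sample weights, other filters, fewer groups, a replicate block, marker covariates and libraries left out. The scripts were tested on simulated data.

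Libraries of a group differed beyond sampling noise (chi-square per degree of freedom 4.00 to 20.7), and the labels do not say whether pools shared litters, so p-values measure the spread between these pools. The members and lists were chosen with earlier results of these data known. Named genes are the STAT genes, up to 3 called genes of smallest p per list and response (all genes of lists of 4), and the 3 genes most correlated with each STAT gene, with predicted genes and receptor segments left out. A further gene of the family is not reported here. Markers of 9 cell types were also listed: T cell, immature T cell, myeloid, dendritic cell, B cell, NK and innate lymphoid, endothelial, epithelial, and fibroblast and smooth muscle. In juveniles 5 of 10 T cell markers fell (8 without the 2 libraries named in the report as high in Rag1), 4 of 6 endothelial markers rose and 1 fell (2 and 1 without them), and 2 of 6 epithelial markers rose (3 without them). Of all genes tested, 15.4% were called higher and 9.42% lower in juveniles. B cell, NK and innate lymphoid, and fibroblast and smooth muscle markers had 0 calls in either response with edgeR. At an unadjusted p under 0.05 there were 0 in neonates, and in juveniles 1 of the first, 1 of the second and 0 of the third. Without those 2 libraries, 1 of 7 B cell markers fell and 1 of 4 NK and innate lymphoid markers rose in juveniles.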

Additional observations from a re-analysis of the deposited data

Results flagged for a closer look

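The response to E. coli differed between the ages, by the interaction term in edgeR, for 19 of the STAT genes, named list genes and correlated genes. Named list genes had the smallest p in a response or belonged to a list of 4, and correlated genes were those that tracked a STAT gene. The 19 are therefore a list, not a share to set against the 7.00% of all genes tested that were called. The STAT gene among them was Stat2, whose log2 change was larger in juveniles by 1.20. Of the kinases and receptor chains, juvenile changes were larger for Jak2 (0.65), Jak3 (0.74), Il12rb1 (1.41), Il2ra (2.01) and Il2rb (1.26), on the log2 scale. Of the ISGF3 targets they were larger for Ifit1 (2.32), Oas2 (1.64), Rtp4 (1.50) and the inhibitor Usp18 (1.81). Of the targets of the other factors and the cytokines they were larger for Ifng (2.60), Il18rap (0.84), Gzmb (2.63), Maf (0.89) and Ccr4 (1.23). Of the genes correlated with Stat2 they were larger for Nampt (1.17), Zbp1 (1.27) and Gbp4 (1.10). For Il22 the fitted difference was 4.06, with 2 counts in all in the control juvenile libraries, so its size is imprecise.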

How the results depend on the processing

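Stat2 was called higher in juveniles under all 23 alternatives run (log2 1.33 to 1.67), its difference between ages under all 22, and Stat3 under 21 of 23 in neonates and 22 of 23 in juveniles; the exceptions were the marker covariates. The number of STAT genes called was 0 in neonates with either covariate, and in juveniles 4 with limma voom, 1 with the myeloid covariate and 2 to 4 with a library left out. Between ages after E. coli it was 1 with no filter, with the replicate block (Stat4 log2 0.27, adjusted p = 0.0575) and with either covariate, and 1 to 3 with a library left out. The replicate numbers did not pair the samples: same-numbered libraries correlated at -0.18 to 0.22 over 18 pairs and 5 of 12 libraries correlated best with their own number. The block changed no other call among the STAT genes. With the longest transcript as the length, 4 of 6 genes kept their rank in the average over the 4 groups (2 in control juveniles). The log2 shift of the Stat5a to Stat5b ratio was 0.0664 to 0.254 with a library left out.

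The other changes of direction were of values near 0 that were not called, and their cause was not tested. With the immature T cell covariate the neonatal log2 changes were 0.0427 for Stat4, -0.0791 for Stat5a, 0.0644 for Stat5b and -0.0733 for Stat6, the differences of responses 0.254 for Stat5a and 0.0440 for Stat6, and the age difference after E. coli -0.0960 for Stat6. With the myeloid covariate they were 0.0850 for Stat4, 0.0589 for Stat5b and -0.0719 for Stat6 in neonates, 0.0461 for Stat5b in juveniles and 0.00766 for Stat3 between ages after E. coli. With limma voom the juvenile changes were -0.0334 for Stat5a and 0.00810 for Stat5b and the difference 0.0201 for Stat5b. Without control neonatal library 1 and control juvenile library 2 they were -0.0685 for Stat5a in juveniles, 0.0275 for the difference of Stat5b and 0.0329 for Stat2 between ages after PBS. With 1 library left out, the ranges were -0.0709 to 0.0368 for Stat5b in neonates, -0.0688 to 0.251 for Stat5a in juveniles, -0.266 to 0.0889 for the difference of Stat5a, -0.123 to 0.0236 for that of Stat5b and -0.124 to 0.0214 for Stat3 between ages after E. coli. Depth did not limit these genes, but 3 pools a group limit the precision.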
